A study of Saccharomyces cerevisiae with 6 samples.

Results

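The proteasome genes of the budding yeast Saccharomyces cerevisiae were taken as those whose standard name is PRE, PUP, RPN or RPT followed by a number, together with SCL1. This gave 34 genes of the 6256 with a probe on the array. Of them 14 encode the core particle, 18 encode the regulatory particle, and RPN4 and RPN14 share the naming scheme without encoding subunits. Total RNA had been taken at 9 h of fermentation on xylose, supplied at 50 g/L, for 3 arrays, and at 3 h of fermentation on glucose, also at 50 g/L, for 3 arrays. No genotype or strain is given in the sources used here, for either sugar. The study's title asks which promoters can serve on xylose, and the comparison available for that question is xylose at 9 h against glucose at 3 h. Sugar and time differed together and cannot be told apart, and the source name of the glucose samples gives 9 h, where their titles and the design text give 3 h. The labels do not say whether the replicates were separate cultures, so p-values measure no more than how far these arrays differ, and that may be technical.

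The proteasome is the protease of the cytosol and nucleus that degrades proteins tagged with ubiquitin. Its core particle is a barrel of stacked rings, in which the outer alpha rings gate the entrance and the inner beta rings hold the cutting sites. The regulatory particle caps the barrel: its base holds a ring of ATPases that unfold substrates, and its lid removes ubiquitin. In yeast the transcription factor Rpn4 activates the subunit genes through a shared promoter element and is itself a short-lived substrate of the proteasome.

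The values are log2 signal relative to the 75th percentile of each array, so they compare 1 gene between arrays and not genes with each other. All 34 genes were well above background on all 6 arrays and passed the filter on dim probes, as did 5900 of the 6256 genes. The 75th percentile itself was 1407 to 3871 signal units, and precision is limited by the number of arrays. Glucose replicate 2 stood apart, correlating across genes with glucose replicates 1 and 3 at 0.868 and 0.837, against 0.958 between those 2 arrays. On it 39 genes lay more than 8-fold from every other array, against 0 to 3 on each of the others. LEU2, a leucine synthesis gene deleted in many laboratory strains, was at a log2 level of 0.34 on it and from -9.07 to -7.88 on the other 5 arrays. MET17, a methionine synthesis gene that some laboratory strains also lack, was at 4.57 on it and from -9.06 to -8.04 on the others, and the asparaginase gene ASP3-1 was at -8.55 on it and from 2.87 to 3.99 on the others. Whether that array holds RNA of the same strain was not tested, and each difference over all arrays includes it. Xylose replicates 1 and 2 were closest to each other, with a median absolute log2 difference of 0.09 over all genes, against 0.46 and 0.48 to xylose replicate 3. Slides were told apart by the barcode number in the name of each scan, not by the sample labels. By that number both sugars had replicates 1 and 2 on slide 1 and replicate 3 on slide 2.

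No proteasome gene passed limma's test between xylose and glucose (0 of 34 at a Benjamini-Hochberg adjusted p under 0.05), where 2.58% of the 5900 genes tested did, 1.46% higher and 1.12% lower in xylose. At an unadjusted p under 0.05 there were 2, PRE6 and RPN4, against 16.5% of all genes. The differences were small and mostly of 1 sign. The log2 difference, xylose less glucose, was negative for 31 of the 34 genes and for 31 of the 32 subunits, against 48.4% of all genes. Its median was -0.36 over the subunits and 0.02 over all genes. The subunit differences ran from -0.81 to 0.05 with an SD of 0.20 over genes, against 0.72 over all genes. The genes share the arrays they were measured on, so their common sign is not 34 separate observations. Fewer cells that express a gene and less RNA per cell cannot be told apart in these bulk samples. The 95% confidence interval lay within 2-fold either way for 16 of the 34 genes. For the others this fit does not exclude a difference beyond 2-fold. The fit has no term for the slide and includes glucose replicate 2. Spread between slides and on that array thus counts as error in its intervals.

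**Figure D1:**
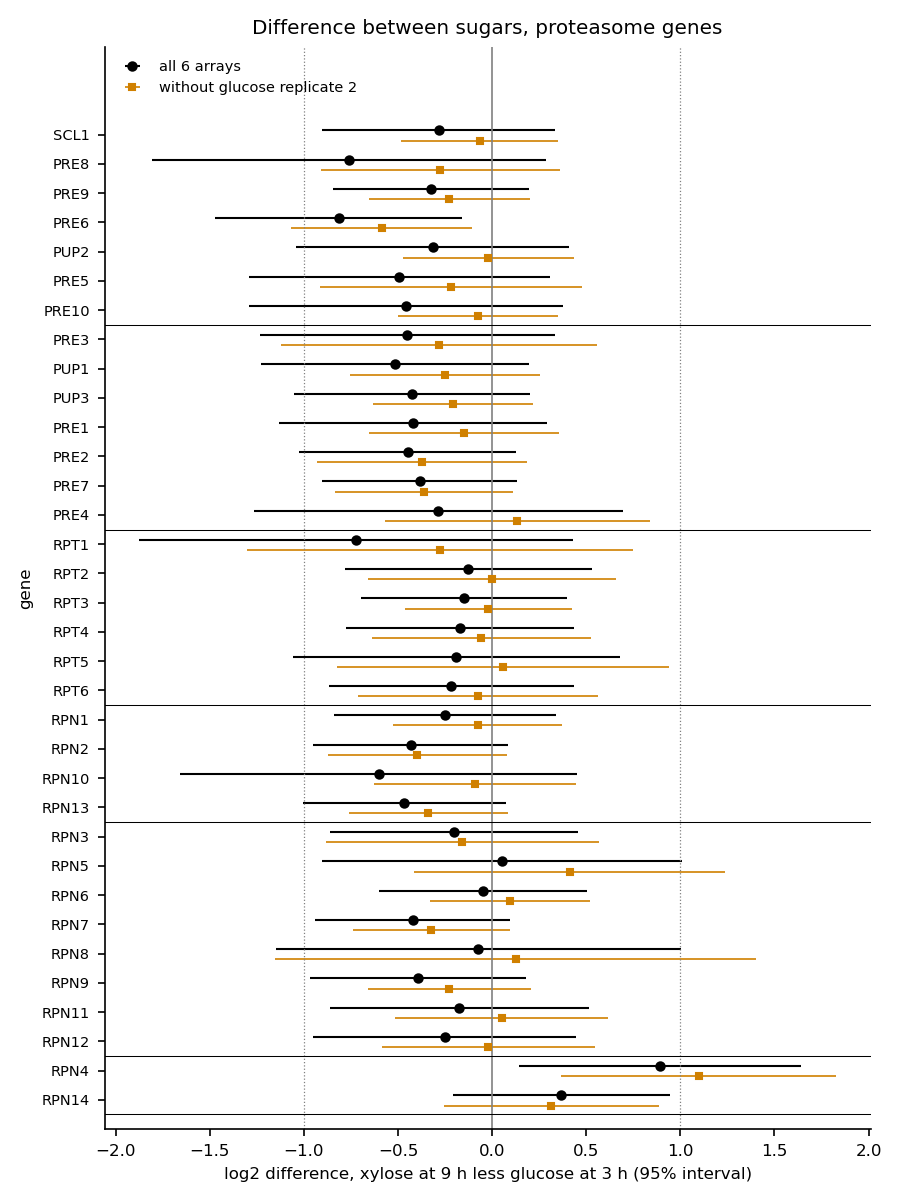
Log2 difference of each of the 34 genes, xylose at 9 h less glucose at 3 h (x axis), with its 95% confidence interval from limma, for all 6 arrays (black circles) and without glucose replicate 2 (orange squares); dotted lines mark 2-fold and rules separate alpha ring, beta ring, ATPases, other base, lid and non-subunits. With all arrays 31 of 34 points lie left of 0, and the intervals of PRE6 and RPN4 leave out 0.

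Much of this shift was set by 1 array. Glucose replicate 2 was the highest of the 6 arrays for 27 of the 34 genes, where it was the highest for 26.2% of all genes. It lay above both other glucose arrays for 29 of the 34 genes, against 38.7% of all genes. Its median excess over the mean of those arrays was 0.60 for the 34 genes and 0.02 for all genes. Its excess was over 1 on the log2 scale for 6 genes, namely RPN10 (1.54), PRE8 (1.46), RPT1 (1.33), PRE4 (1.26), PRE10 (1.15) and RPN5 (1.08). Without glucose replicate 2 the median difference of the 32 subunits was -0.12, and 26 of the 32 were negative, against 47.0% of all genes. No member was then called (0 of 34), where 11.5% of all genes were, 5.88% higher and 5.66% lower in xylose. The interval lay within 2-fold for 28 of the 34 genes without that array.

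**Figure D2:**
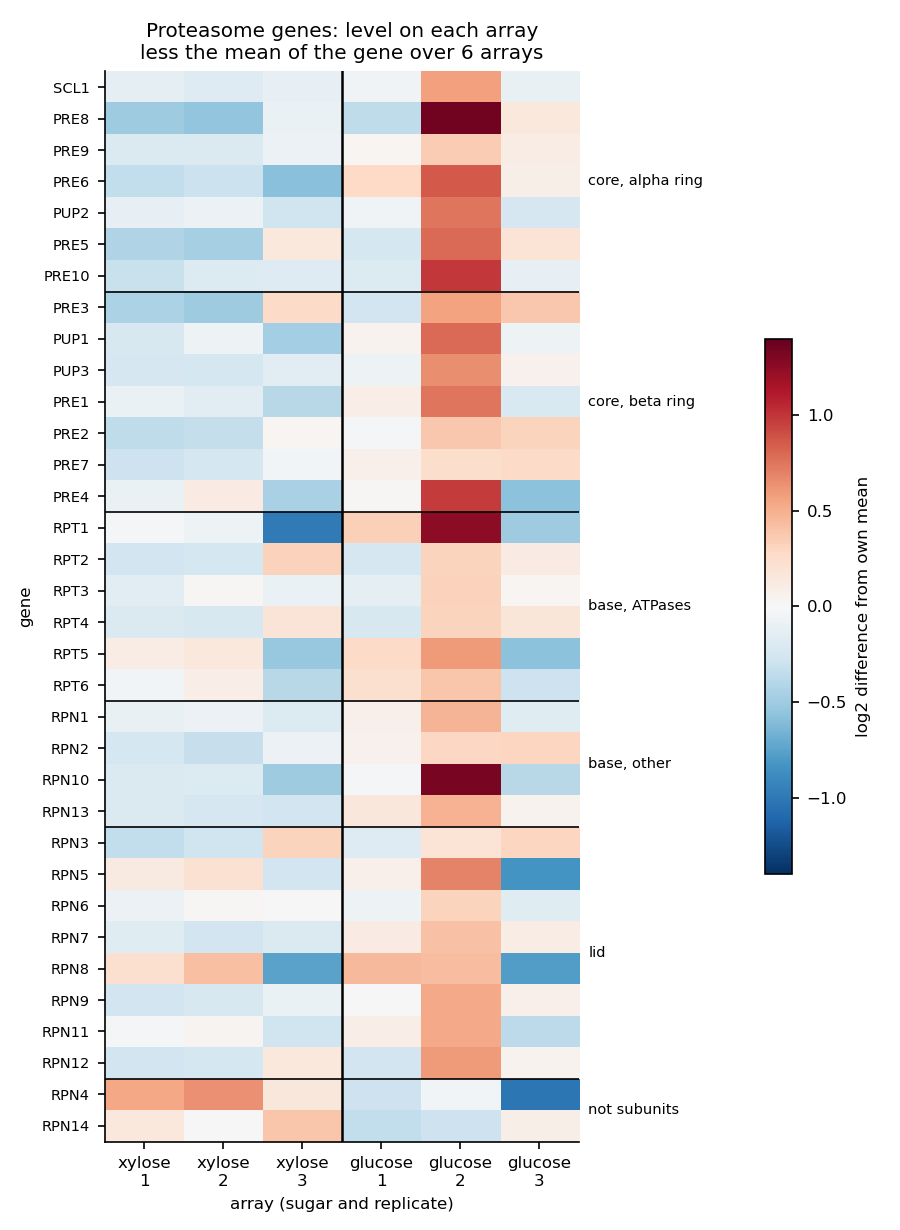
Level of each gene (rows, grouped by subcomplex) on each array (columns, xylose replicates 1 to 3 and then glucose replicates 1 to 3), as the log2 difference from the gene's own mean over the 6 arrays. The column of glucose replicate 2 is red for all 32 subunits, with a median of 0.55, and RPN4 shows the opposite split between sugars.

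The alpha ring (SCL1, PRE8, PRE9, PRE6, PUP2, PRE5 and PRE10) forms the gated entrance of the core. Its 7 genes had negative differences throughout, from -0.81 to -0.28 with a median of -0.46, and none passed the test. Among all subunits PRE6 (YOL038W) differed most. It had log2 levels of 0.92, 0.96 and 0.68 on the xylose arrays, against 1.53, 2.12 and 1.34 on the glucose arrays. The 2 groups did not overlap and the same-numbered pairs differed by -0.61, -1.16 and -0.67. The mean was 0.85 ± 0.15 in xylose and 1.67 ± 0.41 in glucose (SD, n = 3 each), a log2 difference of -0.81 ± 0.28 (SE) or 0.569 of the glucose level, with limma's adjusted p = 0.201. Without glucose replicate 2 the difference was -0.59 ± 0.19 (adjusted p = 0.117).

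PRE8 (YML092C) had the widest spread of the ring. Its log2 levels were 0.02, -0.04 and 0.42 in xylose, against 0.16, 1.86 and 0.65 in glucose. The groups overlapped, and the glucose mean was raised by replicate 2. Its difference of -0.76 ± 0.44 with all arrays became -0.28 ± 0.25 without that array. PRE10 (YOR362C) had levels of 1.34, 1.45 and 1.46 in xylose, against 1.45, 2.64 and 1.53 in glucose. All its arrays except glucose replicate 2 thus lay within a narrow band, and its difference of -0.46 ± 0.35 became -0.08 ± 0.17. PRE9 (YGR135W), the alpha subunit that yeast can grow without, was close to uniform within each sugar. It had 1.21, 1.22 and 1.33 in xylose, against 1.44, 1.77 and 1.52 in glucose, with no overlap and a difference of -0.32 ± 0.22 (limma adjusted p = 0.536). SCL1, PUP2 and PRE5 differed by -0.28, -0.32 and -0.49, and by -0.07, -0.02 and -0.22 without glucose replicate 2.

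In the beta ring the cutting sites are carried by PRE3 (caspase-like activity), PUP1 (trypsin-like) and PRE2 (chymotrypsin-like), and PUP3, PRE1, PRE7 and PRE4 complete the ring. All 7 differences were negative, within a narrow range of -0.52 to -0.29, with a median of -0.43, and none passed. PRE2 (YPR103W) had log2 levels of 0.89, 0.91 and 1.27 in xylose, against 1.23, 1.63 and 1.57 in glucose. The groups overlapped by a small margin, since xylose replicate 3 stood above glucose replicate 1. PRE2 differed by -0.45 ± 0.24 over all arrays (limma adjusted p = 0.431), and leaving out glucose replicate 2 gave -0.37 ± 0.22 (0.353). PUP1 (YOR157C) had 0.25, 0.41 and 0.00 in xylose, against 0.53, 1.27 and 0.41 in glucose, a difference of -0.52 ± 0.30. The groups did not overlap, though xylose replicate 2 and glucose replicate 3 were nearly equal. PRE3 (YJL001W) had 0.22, 0.17 and 0.93 in xylose, against 0.40, 1.22 and 1.05 in glucose, and differed by -0.45 ± 0.33. Replicate 3 of PRE3 was high in xylose, and in glucose it stood above replicate 1.

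The noncatalytic PRE7 (YBL041W) was the beta gene that least depended on glucose replicate 2. Its levels were -0.67, -0.63 and -0.41 in xylose, against -0.30, -0.13 and -0.11 in glucose. The groups did not overlap, and the difference was -0.39 ± 0.22, or -0.36 ± 0.19 without that array. PRE4 (YFR050C) was the gene of the ring whose sign turned, with -0.29 ± 0.42 for all arrays and 0.13 ± 0.28 without glucose replicate 2. PUP3 and PRE1 differed by -0.43 and -0.42, and by -0.21 and -0.15 without that array. Over the whole core particle 13 of 14 genes were lower in xylose within each of the 3 same-numbered pairs, against 24.5% of all genes. The exception was PRE4. Pair 2 holds glucose replicate 2, and its core median was -0.88, against -0.17 and -0.18 in pairs 1 and 3. The genes share these arrays, so the 13 are not separate observations.

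The ATPases RPT1 to RPT6 unfold substrates and thread them into the core, and in yeast the tails of Rpt2 and Rpt5 help to open its gate. Their differences were all negative, from -0.72 to -0.13 with a median of -0.18, and the median was -0.04 without glucose replicate 2. None passed the test. RPT1 (YKL145W) had the widest range. It stood at 0.90, 0.86 and -0.06 in xylose, against 1.26, 2.18 and 0.43 in glucose. In both sugars replicate 3 was the lowest array and the pairs differed by -0.36, -1.32 and -0.49. The difference was -0.72 ± 0.49 (limma adjusted p = 0.534), and -0.28 ± 0.41 without glucose replicate 2. RPT2, RPT3, RPT4, RPT5 and RPT6 differed by -0.13, -0.15, -0.17, -0.19 and -0.22. Each of these differences was smaller than its standard error.

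The other genes of the base encode the scaffolds Rpn1 and Rpn2 and the ubiquitin receptors Rpn10 and Rpn13. They differed by -0.25, -0.43, -0.60 and -0.47, and none passed. RPN2 (YIL075C) had log2 levels of 0.84, 0.76 and 1.004 in xylose, against 1.15, 1.37 and 1.39 in glucose. RPN13 (YLR421C), whose protein docks on Rpn2, had -0.01, -0.04 and -0.09 in xylose, against 0.35, 0.67 and 0.23 in glucose. For both genes the groups did not overlap. Without glucose replicate 2 the difference was -0.40 ± 0.19 for RPN2 and -0.34 ± 0.17 for RPN13 (limma adjusted p = 0.252 and 0.269). RPN10 (YHR200W) showed another pattern, with 1.83, 1.84 and 1.54 in xylose, against 2.01, 3.36 and 1.65 in glucose. It overlapped between the sugars, and its difference of -0.60 ± 0.45 became -0.09 ± 0.21 without glucose replicate 2, the array on which it was highest.

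**Figure D3:**
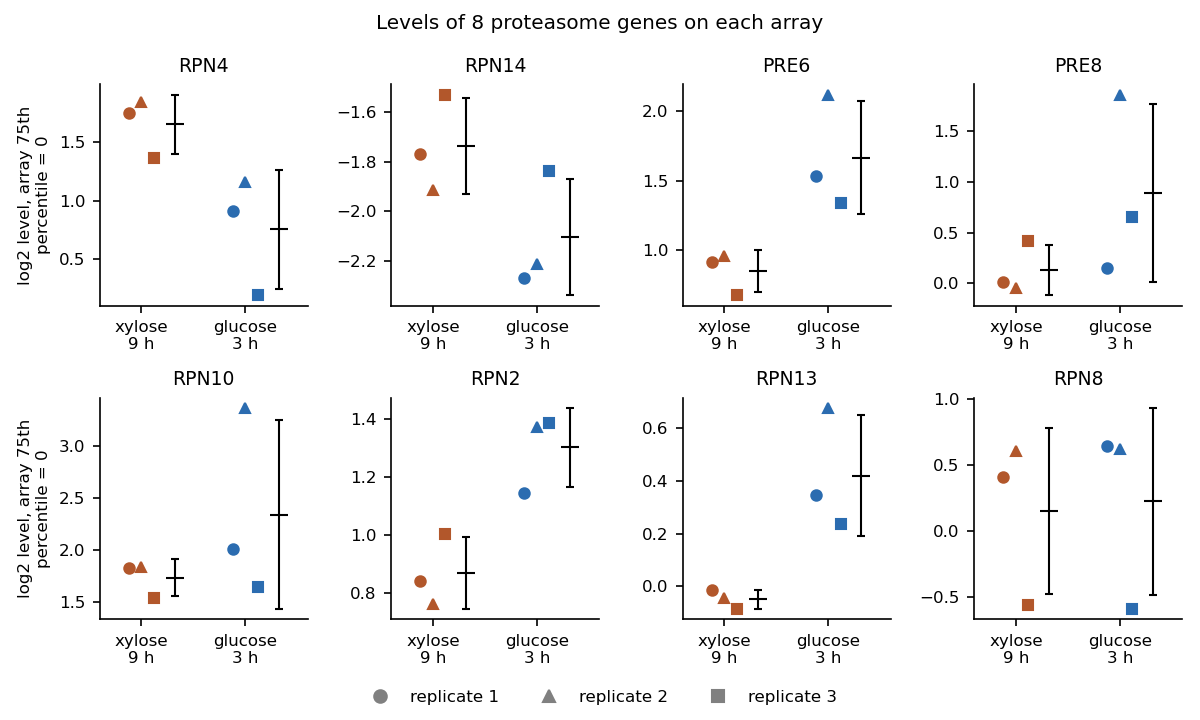
Log2 level of 8 proteasome genes on each array, relative to the array's 75th percentile, for xylose at 9 h (orange) and glucose at 3 h (blue), with replicates as symbols and the mean ± SD (n = 3) as bars beside them. RPN4 lies higher in xylose without overlap, PRE6, RPN2 and RPN13 lie lower without overlap, and the glucose bars of PRE8 and RPN10 are widened by replicate 2.

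The lid holds the deubiquitinase Rpn11, its catalytically inactive partner Rpn8, and the scaffold proteins Rpn3, Rpn5, Rpn6, Rpn7, Rpn9 and Rpn12. Its 8 differences ran from -0.42 to 0.05 with a median of -0.19, none passed, and the median was 0.02 without glucose replicate 2. RPN7 (YPR108W) was the most uniform within each sugar. It had -1.02, -1.11 and -1.06 in xylose, against -0.74, -0.44 and -0.74 in glucose, with no overlap and a difference of -0.42 ± 0.22 (limma adjusted p = 0.408). RPN9 (YDR427W) also did not overlap, with -0.15, -0.10 and 0.02 in xylose against 0.11, 0.64 and 0.19 in glucose. RPN11 (YFR004W) overlapped, with 0.08, 0.14 and -0.18 in xylose against 0.19, 0.64 and -0.26 in glucose, and differed by -0.17 ± 0.29. RPN5 was the 1 subunit with a positive difference (0.05 ± 0.41). RPN3, RPN6, RPN8 and RPN12 differed by -0.20, -0.05, -0.07 and -0.25. Of the 18 regulatory particle genes RPN2, RPN13, RPN7 and RPN9 were the 4 whose groups did not overlap. All 4 were lower in xylose, where 10.9% of all genes were lower without overlap.

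In total the xylose arrays lay below every glucose array for 10 of the 34 genes, namely SCL1, PRE9, PRE6, PUP1, PUP3, PRE7, RPN2, RPN13, RPN7 and RPN9, where 10.9% of all genes did. They lay above every glucose array for 1, RPN4, where 12.6% of all genes did. The groups of SCL1 and PUP1 nearly touched.

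The transcription factor gene RPN4 (YDL020C) went against the subunits. Its log2 levels were 1.74, 1.84 and 1.36 in xylose, against 0.91, 1.16 and 0.19 in glucose. Every xylose array was above every glucose array, and each pair was higher in xylose, by 0.83, 0.68 and 1.17. The mean was 1.65 ± 0.25 in xylose and 0.76 ± 0.50 in glucose (SD, n = 3 each). The difference was 0.89 ± 0.32 (SE), or 1.86-fold, with a 95% interval of 0.15 to 1.64 and limma's adjusted p = 0.218. It was the 1 member that another fit called. With the slide as a block limma's adjusted p was 0.0332, where 11.8% of all genes were called, 6.47% higher and 5.29% lower in xylose. It was 0.0646 when the replicate number was the block, a fit that called 5.27% of all genes, 2.78% higher and 2.49% lower, and no member. It was 0.0697 without glucose replicate 2. When arrays were centred on the spike-in controls, which moved the median of all genes to -0.67, the difference was 0.20 (adjusted p = 0.871), and 2.24% of all genes were called, 0.39% higher and 1.85% lower, again without a member. The size of the RPN4 difference is thus relative to the bulk of the transcripts.

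RPN14 (YGL004C) encodes a chaperone that binds Rpt6 during assembly of the base. This gene was the other member higher in xylose within every pair, by 0.50, 0.30 and 0.31, where 29.7% of all genes were. Its levels were -1.77, -1.91 and -1.53 in xylose, against -2.27, -2.21 and -1.84 in glucose. The groups overlapped through xylose replicate 2 and glucose replicate 3, and the difference was 0.37 ± 0.24 (limma adjusted p = 0.525). In glucose replicate 2, where most subunits were highest, RPN14 differed by -0.16 and RPN4 by 0.61 relative to the mean of the other glucose arrays.

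Slides separated some members more than the sugars did. Replicate 3, the array of slide 2, was set against the mean of replicates 1 and 2 in xylose and against replicate 1 alone in glucose. It moved the same way in both sugars for 30 of the 34 genes, and for 90.4% of all genes, so the members moved much as other genes did. RPN8 (YOR261C) showed the widest such gap. Its levels were 0.41, 0.61 and -0.56 in xylose, against 0.65, 0.62 and -0.59 in glucose. Both sugars thus shared the level of their slide, and RPN8 differed between sugars by -0.07 ± 0.46 (limma adjusted p = 0.963). RPT1, RPT5, RPN5 and PRE4 were likewise lower on slide 2 in both sugars. PRE3, RPN3, PRE5 and RPT2 were higher there than on the slide 1 arrays other than glucose replicate 2. That array stood above glucose replicate 3 for PRE3, PRE5 and RPT2, and below it for RPN3. Replicate number 3 and slide 2 hold the same arrays, so a slide and a replicate effect cannot be told apart.

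**Figure D4:**
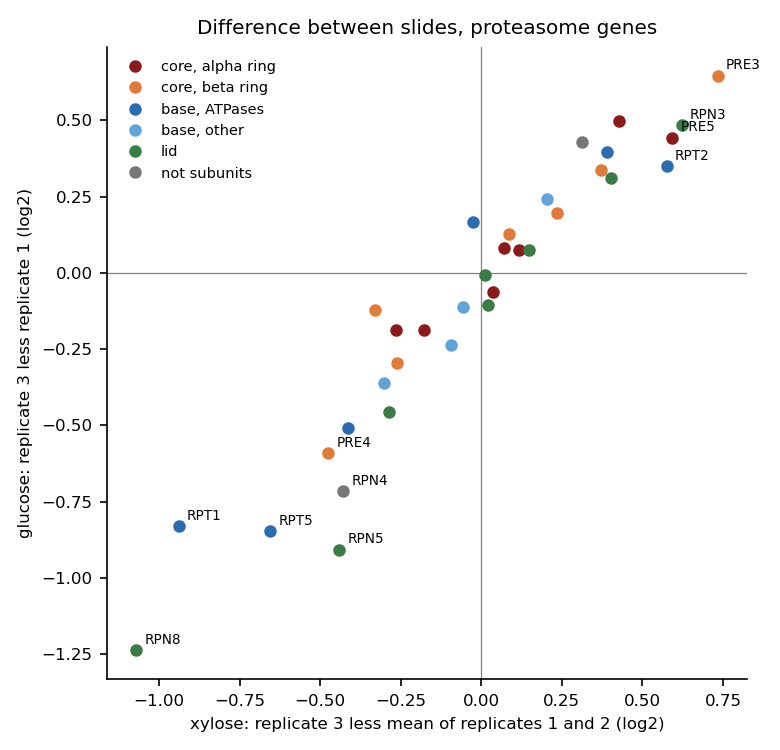
Difference between slides for the 34 genes, in xylose as replicate 3 less the mean of replicates 1 and 2 (x axis) and in glucose as replicate 3 less replicate 1 (y axis), both log2, coloured by subcomplex. The points run from RPN8 at the lower left to PRE3 at the upper right, and 30 of 34 have the same sign on both axes.

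Within the slides the median difference of the 32 subunits was -0.46 on slide 1 and -0.10 on slide 2. Slide 1 holds glucose replicate 2, and with glucose replicate 1 as its single glucose array the slide 1 median was -0.17. The core particle had -0.54 on slide 1, -0.20 on slide 1 with glucose replicate 1 alone, and -0.18 on slide 2. For the regulatory particle the same values were -0.31, -0.14 and -0.01. Both slides were negative for 13 of the 14 core genes and 9 of the 18 regulatory genes, against 35.7% of all genes. The difference between the 2 particles was not tested.

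In the R64 gene table the 34 genes lie on 13 chromosomes. No 2 of them were direct neighbours there. PRE4 and RPN12, and RPT4 and RPN8, were the closest pairs, each with 1 coding gene between its members. PRE4 and RPN12 differed by -0.29 and -0.25, and RPT4 and RPN8 by -0.17 and -0.07.

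Among 15 assembly factors and partners of the proteasome none passed with all arrays, the median was -0.18, and 9 were negative. The sign turned without glucose replicate 2, with a median of 0.07 and 5 of 15 negative. ECM29 encodes a protein that holds core and regulatory particles together. It had -2.27, -2.34 and -1.83 in xylose, against -1.20, -0.59 and -0.69 in glucose, a difference of -1.32 ± 0.28 (limma adjusted p = 0.0615). ADD66, a chaperone of alpha ring assembly, had -1.07, -1.11 and -1.0 in xylose, against -0.29, 0.11 and -0.07 in glucose, a difference of -0.98 ± 0.23 (0.0797). Neither overlapped between the sugars. Both were called without glucose replicate 2, ECM29 at -1.20 (adjusted p = 0.0460) and ADD66 at -0.88 (0.0379), and with the slide as a block (0.0256 and 0.0257). Of all genes 5.66% were called lower without that array and 5.29% with the slide as a block. The slide block also called 1 gene of this list higher, where 6.47% of all genes were. In the replicate block fit ECM29 was called (0.0486) and ADD66 was not (0.0544). SPG5, a proteasome regulator of stationary phase, had the highest difference of the list (0.69 ± 0.28, adjusted p = 0.279). UMP1 and PBA1, which encode other chaperones of core particle assembly, differed by -0.23 and -0.29. SEM1, a lid subunit outside the naming rule, differed by -0.23 ± 0.58.

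The ubiquitin system around the proteasome showed no common sign. UBA1, the enzyme that activates ubiquitin, had 0.29, 0.27 and 0.26 in xylose, against 1.13, 1.26 and 1.102 in glucose. The groups were widely apart, with a difference of -0.89 ± 0.21 and limma's adjusted p = 0.0818 with all arrays. UBA1 was called without glucose replicate 2 (-0.85, adjusted p = 0.0344), with the slide block (0.0174) and with the replicate block (0.0484). Of the 13 genes for activating and conjugating enzymes 12 were tested, UBC11 being too dim, and none passed with all arrays. UBC8, a conjugating enzyme for gluconeogenic fructose-1,6-bisphosphatase, had the highest difference (1.11 ± 0.32, adjusted p = 0.137), and was called without glucose replicate 2 (1.32, adjusted p = 0.0421). UBC5 was then the other gene of this list called higher (1.45, adjusted p = 0.0327), where 5.88% of all genes were. With the slide as a block 1 gene of this list was called higher and 2 lower, UBA1 among the lower. Of all genes 6.47% were called higher and 5.29% lower in that fit. The near-identical conjugating enzymes UBC4 and UBC5, whose probes may share signal, differed by -0.91 ± 0.38 and 1.03 ± 0.41.

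Among the ubiquitin genes themselves UBI4, the stress-induced polyubiquitin gene, differed by 0.01 ± 0.61. RPS31, RPL40A and RPL40B, which encode ubiquitin fused to ribosomal proteins, differed by -0.15, -0.48 and -0.57. None of the 4 passed, and RPL40B was called without glucose replicate 2 (-1.21, adjusted p = 0.0338), a gene whose probe may not tell it from RPL40A. None of 19 ubiquitin ligase genes passed, with a median of 0.11, SLX8 highest at 0.62 and CDC4 lowest at -0.48. None of 9 genes for substrate shuttles and the segregase Cdc48 passed, with a median of -0.04, VMS1 highest at 0.67 and CDC48 lowest at -0.34. That median turned to 0.14 without glucose replicate 2, with 3 of 9 negative, against 6 of 9 with all arrays. With the slide as a block 1 of the 9 was called higher, where 6.47% of all genes were. The 18 deubiquitinase genes gave no call with all arrays, with a median of 0.10, OTU1 highest at 0.76 and UBP5 lowest at -0.85. Their median was 0.24 without glucose replicate 2.

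The 7 genes that act on RPN4 had a median of -0.02, with 4 negative, and none passed. Their median was 0.28 without glucose replicate 2, 0 of the 7 were then negative, and again none was called. The transcription factors HSF1, YAP1, PDR1 and PDR3, which activate RPN4, differed by -0.02, 0.58, -0.26 and 0.26. PDR1 stood at 1.16 in glucose replicate 2 and between -0.48 and -0.05 on the other 5 arrays, and without that array it differed by 0.28. UBR2, MUB1 and RAD6, whose proteins mark Rpn4 for degradation, differed by -0.05, 0.38 and -0.07.

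**Figure D5:**
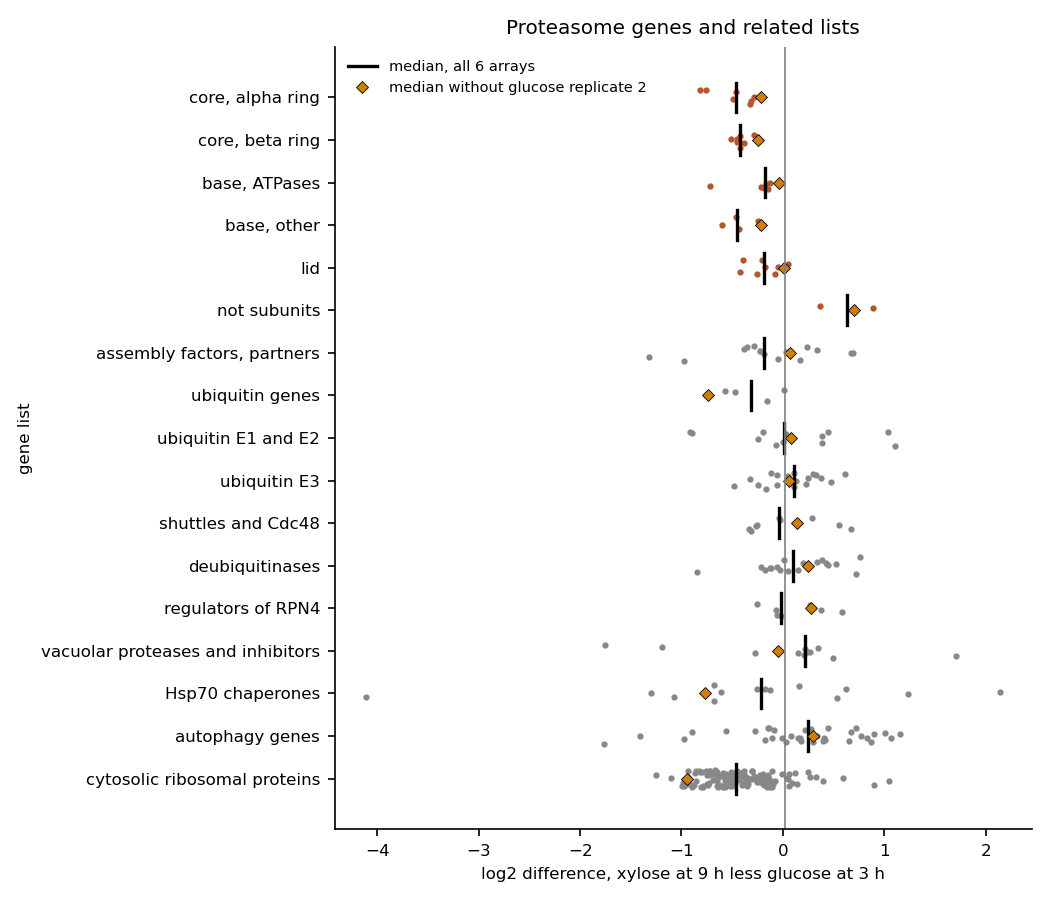
Log2 differences, xylose at 9 h less glucose at 3 h, of the proteasome genes by subcomplex (orange points) and of related gene lists (grey points), with the median over all 6 arrays as a black bar and the median without glucose replicate 2 as a diamond; the vertical line is the median of all genes tested. The subunit medians lie between -0.46 and -0.18 with all arrays and closer to 0 without glucose replicate 2, whereas the ribosomal protein median lies farther from 0 without it.

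Other lists bearing on protein turnover and synthesis were set beside the subunits without a test of the difference. Of 11 vacuolar proteases and inhibitors 8 were positive, with a median of 0.21. This sign rested on glucose replicate 2, without which 4 were positive and the median was -0.04. The aminopeptidase gene APE1 fell by 1.19 on the log2 scale (SE 0.22, limma adjusted p = 0.0418). Of 36 autophagy genes 24 were positive, with a median of 0.25 and no call, ATG39 being highest at 1.16 and ATG41 lowest at -1.76. With the slide as a block 7 of them were called higher and 2 lower, where 6.47% and 5.29% of all genes were. Without glucose replicate 2 there was 1 call in each direction, where 5.88% of all genes were called higher and 5.66% lower. In the Hsp70 family of 14 chaperone genes SSA3 rose by 2.15 and SSA2 fell by 4.11 on the log2 scale (limma adjusted p = 0.0290 and 0.0401), with a median of -0.22 over the family. SSA3 and SSA2 have close copies, SSA4 and SSA1, whose signal the probes may share. The family's median was -0.77 without glucose replicate 2, with 2 genes called higher and 4 lower, where 5.88% and 5.66% of all genes were. The calls of APE1, SSA2 and SSA3 stood without glucose replicate 2 and were lost when any other single array was left out, with 0 calls in both lists. The 138 cytosolic ribosomal protein genes, which include 3 of the ubiquitin genes, had a median of -0.46 with 124 negative and no call, RPL41B being highest at 1.05 and RPS22A lowest at -1.25. The ribosomal list shares the sign of the proteasome subunits but not their pattern over arrays. Its median deviation was -0.70 on glucose replicate 2, against 0.72 and 0.60 on glucose replicates 1 and 3, where the subunits had 0.55, against 0.01 and 0.04. Without glucose replicate 2 the ribosomal median was -0.95 and 49 of its genes were called lower, where 5.66% of all genes were, against 0 of the 32 subunits.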

How the data were processed

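Total RNA was labelled with Cy3 and hybridised to 1-colour Agilent arrays, 3 per sugar; groups came from the sample titles. The submitters' processing notes and the headers name Agilent Feature Extraction 10.1.1.1. The deposited processed intensity has had background and spatial trend removed, per the file headers. A deposited table of log2 values matched log2 processed intensity less a constant per array, within 0.001 for at least 99.98% of probes; its columns had medians of -1.25, -1.23 and -1.38 (xylose 1, 2, 3) and -1.26, -1.26 and -1.41 (glucose 1, 2, 3). No source used here says how the authors made it; by this match its scale is log2, it rises with the signal, and no gene was centred.

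Left out were control spots and those that the deposited flags mark as uneven or as outliers (727 to 1722 of 43792 per array). No spots were saturated. The log2 processed intensity less the array's 75th percentile was averaged over the 7 spots of a probe. Probes were tested if on 3 or more of the 6 arrays over 0.5 of their spots were well above background. Symbols came from the R64 table by locus tag, which named 5756 of 6256 probes; the files name no build, so coordinates are not given. The test was limma 3.58.1 under R 4.3.3 (lmFit, eBayes, two-sided, Benjamini-Hochberg over 5900 genes, called under 0.05). It was also run on simulated data, in which arrays were independent, with no slide shift and no array standing apart. That run therefore does not show how the test behaves under those features of these arrays. Lists were described by counts and medians without a test. All members were named, with the called genes of each related list, or its highest and lowest where none was called, and all ubiquitin genes and regulators of RPN4; ADD66, UBA1, UBC5, UMP1, PBA1, SEM1, LEU2, MET17 and ASP3-1 were named after their values were seen. Members and lists were chosen with earlier results of these data known. A planned search of promoters for the Rpn4 element was not run, as promoter sequences were not used here.

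Replicate numbers are shared between the sugars. The deviations of same-numbered arrays from their group means correlated across genes at 0.40, 0.22 and 0.71 for numbers 1 to 3, all above 0.1, the bound used here for treating numbers as pairs. Unlike numbers within slide 1 correlated as well, xylose 2 with glucose 1 at 0.41 and xylose 1 with glucose 2 at 0.24, so on that slide the number does not single out a partner. The fit with the number as a block is given where it changes a call or a count. Alternatives were other scalings, filters, blocks, arrays left out one at a time, and the deposited values. Background correction by normexp used the median spot signal.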

Additional observations from a re-analysis of the deposited data

How the results depend on the processing

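No proteasome gene was called under 18 of 19 alternatives; with the slide as a block 1 was, RPN4. Over all genes limma's count was 152 with all arrays, 311 when the replicate block was added, 694 under the slide block, 55 with normexp, and 12 with xylose replicates 1 and 2 averaged. Leaving out 1 array gave 12 to 681, the highest without glucose replicate 2. Within slide 1 it was 0, with 992 genes at an unadjusted p under 0.05. With xylose replicates 1 and 2 averaged and glucose replicate 2 left out, a setting added after the data were seen, it was 98. The replicate block changed no call of a member.

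The median difference of the 34 genes, -0.32, lay between -1.01 and -0.08 over the alternatives. Spike-in centring gave -1.01 for the 34 genes, -1.15 for the alpha ring, -1.12 for the beta ring, -0.87 for the ATPases, -1.14 for the other base genes and -0.88 for the lid, beside -0.67 for all genes. Leaving out 1 array put the median between -0.43 and -0.0833 for the 34 genes and between -0.51 and -0.21 for the other base genes, each nearest 0 without glucose replicate 2. With both changes to the arrays it was -0.11 for the 34 genes, -0.12 for the alpha ring and -0.24 for the other base genes.

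Signs turned as follows. RPN5 became -0.64 and RPN14 -0.32 with spike-in centring, RPN8 0.0496 with outlying spots kept, RPN5 -0.21 within slide 1, and RPN5 -0.0209 with xylose replicates 1 and 2 averaged. With glucose replicate 2 left out as well, PRE4 was 0.0555, RPT2 0.0950, RPT4 0.00701, RPN6 0.0972, RPN11 0.00223 and RPN12 0.0479. Over the fits that leave out 1 array PRE4 ranged from -0.64 to 0.13, RPT5 from -0.53 to 0.0593, RPN5 from -0.35 to 0.41, RPN6 from -0.15 to 0.0936, RPN8 from -0.48 to 0.28 and RPN11 from -0.40 to 0.0499. The cause of these turns was not tested. Every member was well above background on all arrays.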
